A study of Mus musculus with 120 samples.

Results

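Mettl21c, Myoz3 and Ablim1 are 3 muscle genes among the 53656 gene rows of each deposited table. They were selected on their measured levels, for a strong fall in the soleus of mice without ANT1, so the size of that fall is given as a description, with no test. The earlier values behind the choice were those of non-exercised mice. The exercised mice are other animals of the same strains, but the choice named no treatment, so their soleus is described in the same way. Differences among the other strains, between responders and non-responders, in heart, and the relation to Myh4 were tested where the counts allowed it.

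Mettl21c encodes a protein lysine methyltransferase of skeletal muscle, a member of the METTL21 family, whose enzymes add methyl groups to chaperones and other proteins. Myoz3 encodes calsarcin-3 (myozenin-3), a protein of the sarcomere's Z-disc in fast fibres that binds the phosphatase calcineurin, alpha-actinin and filamin C. Ablim1 encodes actin-binding LIM protein 1, which ties LIM domains to a villin-type headpiece that binds actin filaments, and which is made in many tissues. The soleus is a postural muscle of slow and fast oxidative fibres, and Myh4 encodes the fast myosin heavy chain of IIb fibres, which a mouse soleus holds few of.

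RNA sequencing covered soleus and heart of mice that all shared the C57BL/6EiJ background with a working Nnt gene. The ANT1-/- mice lack the Slc25a4 gene, which encodes the mitochondrial ATP/ADP carrier of heart and muscle, and the labels name no tissue-limited Cre, so the gene is absent from the whole animal. The other strains carry a mutation in their mitochondrial DNA and are called the mtDNA strains here: ND5S204F (m.12352) and ND6P25L (m.13997), both in complex I subunits, and CO1V421A (m.6589), in a complex IV subunit (ND5, ND6 and CO1 in the plots). Exercised mice, aged 16 weeks at the start, were run on alternate days over 8 weeks. Each session lasted 45 min, at 50% of the capacity measured for the animal, and tissue was taken 6 days after the last. Non-exercised mice were handled only, and no separate age is given for them. Each of the 16 groups of strain, treatment and tissue had 6 libraries, 96 of the 120 labelled samples. The B6 control is not analysed here.

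Soleus libraries held 10.2 to 20.7 M expected counts and heart libraries 19.7 to 26.5 M. Slc25a4 stood at 4.99 to 22.2 CPM (counts scaled to a common library size) in the 12 ANT1-/- soleus libraries, against 2170 to 4065 CPM in the 36 libraries of the mtDNA strains, and at 1.89 to 5.94 CPM against 484 to 3938 CPM in heart. Transcripts encoded in mitochondrial DNA made up 33.99 to 47.6% of the counts in ANT1-/- soleus, against 12.9 to 24.8% in the mtDNA strains. CPM values here are scaled by TMM (trimmed mean of M-values), computed within each tissue. The code of 1 ND5S204F mouse, B80, stands on an exercised soleus and on a non-exercised heart, labels that cannot both be right. Every comparison of groups that holds this mouse was therefore also run without it, and no call of a member changed. Each library of a group carries its own mouse code, so p-values measure the spread between these mice.

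Ablim1 has 5 start windows in RefSeq (GRCm38.p6), each of 300 bases, with 250 before a transcription start and 50 after it. Gene counts do not tell which start was used. The windows were searched on both strands for the E-box CANNTG that MyoD-type factors bind, the NFAT core GGAAA, and the MEF2 and CArG (SRF) motifs. The first window from the gene's 5′ end, chr19:57314870-57315169, is 65.3% G and C and holds no E-box and 1 NFAT core. The fourth, chr19:57197582-57197881, is 48.3% G and C and holds 3 E-boxes and 2 NFAT cores. Both are shown as the gene's strand reads (minus), as the gene's outermost start and the start with the most matches to these motifs, with E-boxes in capitals.
Ablim1 start 1: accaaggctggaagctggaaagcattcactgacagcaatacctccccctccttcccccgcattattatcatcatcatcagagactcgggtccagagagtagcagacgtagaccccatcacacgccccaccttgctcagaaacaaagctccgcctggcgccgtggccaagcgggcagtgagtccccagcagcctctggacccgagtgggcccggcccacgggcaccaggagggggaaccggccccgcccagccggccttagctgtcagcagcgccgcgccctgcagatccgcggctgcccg
Ablim1 start 4: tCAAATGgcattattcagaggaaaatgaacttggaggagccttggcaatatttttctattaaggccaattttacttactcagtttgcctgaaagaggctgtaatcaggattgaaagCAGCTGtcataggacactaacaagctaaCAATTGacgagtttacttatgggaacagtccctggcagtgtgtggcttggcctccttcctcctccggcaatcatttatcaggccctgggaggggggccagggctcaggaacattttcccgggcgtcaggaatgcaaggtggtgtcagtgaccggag
An E-box stands in 72.3% of the 32851 RefSeq windows of this length, an NFAT core in 61.3%, a MEF2 motif in 3.19% and a CArG box in 1.63%, so the E-boxes and NFAT cores above are common letters. None of the 5 Ablim1 windows holds a MEF2 or CArG match.

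In the mouse genome GRCm38 (GENCODE M21), Mettl21c (ENSMUSG00000047343.4) lies on the minus strand of chromosome 1 at 44009408 to 44020034, and the pseudogene Gm15838 lies within it. Myoz3 (ENSMUSG00000049173.8) lies on the minus strand of chromosome 18 at 60573750 to 60591788. Ablim1 (ENSMUSG00000025085.16) lies on the minus strand of chromosome 19 at 57032733 to 57314919, with 21 annotated transcripts, 14 of them protein-coding, and the antisense gene 4930449E18Rik lies within it. The sources used here do not state a strand setting. Reads from exons that these genes may share with Mettl21c and Ablim1 could therefore not be told apart. Whether they share exons was not examined.

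In exercised soleus, all 3 genes were far lower in ANT1-/- mice than in the mtDNA strains, by 46.6-fold for Mettl21c, 16.2-fold for Myoz3 and 6.54-fold for Ablim1. No ANT1-/- library reached the lowest library of any mtDNA strain for any of them. The lowest exercised mtDNA library exceeded the highest exercised ANT1-/- library 17.96-fold for Mettl21c, 4.38-fold for Myoz3 and 3.75-fold for Ablim1.

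Mettl21c had 0.879 (lowest), 1.09 (median) and 2.24 CPM (highest) in the 6 exercised ANT1-/- libraries, against 40.3, 54.9 and 123 CPM in the 18 exercised libraries of the mtDNA strains. The enzyme's transcript was thus close to the limit of detection without ANT1, with 8 to 31 counts per library. Its log2 fold change was -5.54 ± 0.33 (SE; 95% interval -6.20 to -4.89).

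Myoz3 had 0.339, 0.531 and 1.31 CPM (lowest, median, highest) in exercised ANT1-/- soleus, against 5.72, 11.1 and 15.7 CPM in the mtDNA strains. This calsarcin had 4 to 16 counts per ANT1-/- library, so a single count moves such a library's value visibly. Its log2 fold change was -4.02 ± 0.25 (95% interval -4.53 to -3.51).

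Ablim1 had 58.4, 64.9 and 76.5 CPM in exercised ANT1-/- soleus, against 286, 383 and 669 CPM in the mtDNA strains. Unlike the other 2 genes it stayed well counted without ANT1, at 597 to 899 counts per exercised library. Its log2 fold change was -2.71 ± 0.17 (95% interval -3.04 to -2.38).

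All 3 members were lower, as the choice requires, and nothing is read from that count or from the lack of overlap in either treatment. How many of all genes separate as fully was not counted. Across the whole comparison 43.5% of the 13935 genes tested in exercised soleus passed adjusted p under 0.05, and 22.4% were called lower. In bulk tissue, fewer cells of a type and less RNA per cell cannot be told apart.

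The difference was of similar size against each mtDNA strain alone. For Mettl21c the log2 fold change was -5.46 ± 0.34 against ND5S204F, -5.48 ± 0.34 against ND6P25L and -5.70 ± 0.34 against CO1V421A. For Myoz3 it was -3.98 ± 0.27, -3.97 ± 0.28 and -4.10 ± 0.27 in the same order, and for Ablim1 -2.63 ± 0.18, -2.88 ± 0.18 and -2.62 ± 0.18. These comparisons called 39.1%, 33.8% and 30.9% of all genes. The 3 comparisons share the ANT1-/- libraries.

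In non-exercised soleus, Mettl21c stood at 0.333, 1.31 and 2.75 CPM in ANT1-/- mice (lowest, median, highest of 6), against 37.4, 71.6 and 142 CPM in the 18 libraries of the mtDNA strains. Myoz3 stood at 0.373, 0.509 and 1.88 CPM in ANT1-/- mice, against 7.89, 10.2 and 14.6 CPM. Ablim1 stood at 52.04, 57.8 and 78.4 CPM in ANT1-/- mice, against 229, 416 and 602 CPM. The groups did not overlap for any of the 3. Their log2 fold changes were -5.84 ± 0.33, -3.58 ± 0.25 and -2.85 ± 0.17 in the order of the sentences above, where 47.7% of all genes passed the threshold; nothing is read from the members' values there.

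**Figure D1:**
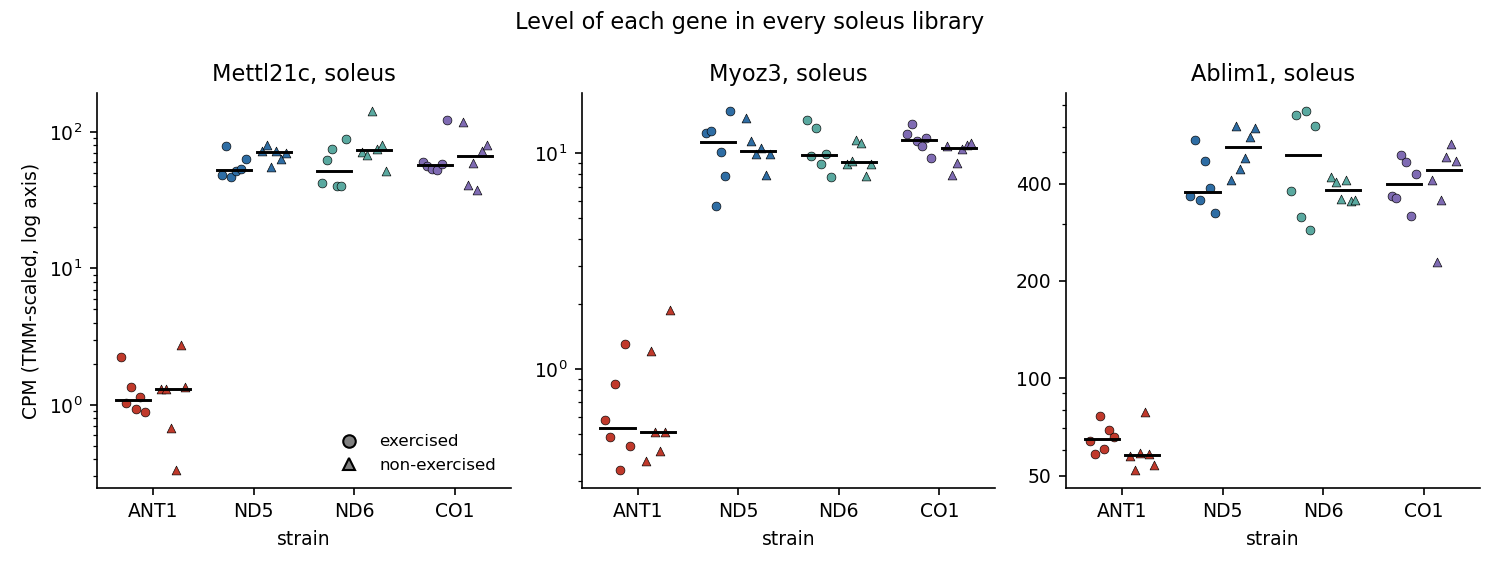
Level of Mettl21c, Myoz3 and Ablim1 in each soleus library (CPM, log axis) by strain and treatment, 6 libraries a group; bars mark group medians. All ANT1-/- libraries lie under all libraries of the mtDNA strains in each panel, with the widest gap for Mettl21c (at most 2.75 CPM in ANT1-/- mice, against at least 37.4 CPM) and the narrowest for Ablim1 (at most 78.4 CPM, against at least 229 CPM).

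Per length, in the deposited FPKM of exercised soleus, the order of the genes was the same in ANT1-/- mice and in the mtDNA strains. Ablim1 was the highest, with a median of 10.9 FPKM in ANT1-/- mice, against 93.0 FPKM in the mtDNA strains. Mettl21c had a median of 0.755 FPKM in ANT1-/- mice, against 58.7 FPKM. Myoz3 had a median of 0.705 FPKM in ANT1-/- mice, against 19.5 FPKM, so that it lay close to Mettl21c in ANT1-/- mice and further below it in the mtDNA strains. The deposited Myoz3 values imply an effective length of 602 to 621 bases, while its 1 annotated GENCODE M21 transcript has 3436, so its FPKM may be set high against the other genes.

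Among the mtDNA strains, no difference of a member in soleus passed edgeR's quasi-likelihood test. Exercised medians for Mettl21c were 52.8 CPM in ND5S204F, 52.1 CPM in ND6P25L and 57.2 CPM in CO1V421A soleus, and non-exercised medians were 71.4, 73.2 and 66.3 CPM in the same order. Exercised medians for Myoz3 were 11.3, 9.85 and 11.6 CPM, and non-exercised medians 10.3, 9.10 and 10.6 CPM. Exercised medians for Ablim1 were 376, 490 and 398 CPM, and non-exercised medians 519, 382 and 440 CPM, so that ND6P25L had the highest of the strains with exercise and the lowest without. Ranges of all 3 strains overlapped for every gene.

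Over both treatments, the 9 log2 differences between pairs of mtDNA strains ran from -0.12 (Mettl21c, ND5S204F minus ND6P25L) to 0.17 (Ablim1, ND5S204F minus CO1V421A; 95% interval -0.08 to 0.41; adjusted p = 0.398, the lowest of the 9). Unadjusted p was under 0.05 for none of them, and DESeq2 called none. ND5S204F differed from ND6P25L in 4% of all genes and from CO1V421A in 4.64%. ND6P25L and CO1V421A differed in 0% by edgeR, with 284 genes under an unadjusted p of 0.05 and 0 by DESeq2. The widest interval, for Mettl21c between ND5S204F and ND6P25L, ran from -0.47 to 0.22.

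The members' levels in exercised and non-exercised soleus lay close together, and are given as values because the genes were chosen on soleus. Averaged over the 4 strains, the log2 difference of exercised minus non-exercised mice was -0.18 ± 0.16 for Mettl21c, 0.01 ± 0.14 for Myoz3 and 0.03 ± 0.09 for Ablim1 (SE). Within ANT1-/- mice it was 0.04 ± 0.48, -0.32 ± 0.38 and 0.14 ± 0.17 in the same order. The widest values were those of Mettl21c in ND6P25L, at -0.48 ± 0.24, and of Ablim1, at 0.34 ± 0.17 in ND6P25L and -0.34 ± 0.17 in ND5S204F. In that averaged comparison 0% of all genes passed the threshold by edgeR, with 536 genes under an unadjusted p of 0.05 and 0 by DESeq2.

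The labels also class exercised mice as responders or non-responders to training, 3 of each per strain. In the 3 ANT1-/- responders, Mettl21c stood at 0.879, 0.933 and 2.24 CPM, against 1.04, 1.14 and 1.36 CPM in the 3 non-responders, so the classes overlapped. Myoz3 stood at 0.339, 0.440 and 0.579 CPM in responders, against 0.483, 0.851 and 1.31 CPM in non-responders, and Ablim1 at 60.5, 64.2 and 65.6 CPM, against 58.4, 69.4 and 76.5 CPM. Over the 4 strains, the log2 difference of responders minus non-responders was -0.17 ± 0.20 for Mettl21c (95% interval -0.58 to 0.24; edgeR's quasi-likelihood test, adjusted p = 0.962). It was -0.31 ± 0.19 for Myoz3 (-0.70 to 0.09; adjusted p = 0.954) and 0.01 ± 0.13 for Ablim1 (-0.26 to 0.28; adjusted p = 0.999). Of all genes, 0% were called by edgeR, with 622 genes under an unadjusted p of 0.05 and 0 by DESeq2.

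Relatives and partners of the 3 genes are described for themselves. The 3 genes were chosen for their fall, so nothing is read from its size beside that of the others. Of the METTL21 family and its substrates, 7 of 8 listed genes were tested in exercised soleus, and 1 was called higher and 2 lower in ANT1-/- mice. Their median log2 fold change was -0.04, beside -0.02 over all genes. The muscle methyltransferase Mettl21e, whose mouse enzyme acts on the segregase Vcp, fell by 1.94 ± 0.33 on the log2 scale (adjusted p = 6.36e-06), and Vcp itself fell by 0.20 ± 0.05 (adjusted p = 0.00183). Hspa8, a constitutive HSP70 chaperone, was higher by 0.34 ± 0.08 (adjusted p = 0.00113). Mettl21a, which methylates HSP70 chaperones, gave 0.03 ± 0.09 (adjusted p = 0.821).

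Of the 13 calsarcins and partners, all tested, 1 was called higher and 7 lower, with a median log2 fold change of -0.27. Actn3, the alpha-actinin of fast fibres, fell by 4.53 ± 0.53 (adjusted p = 1.72e-09). Rcan1, an inhibitor of calcineurin and itself a calcineurin target gene, fell by 1.86 ± 0.31 (adjusted p = 3.04e-06). Myoz1, the calsarcin-2 of fast fibres, fell by 1.14 ± 0.14 (adjusted p = 1.06e-08), while Myoz2, the calsarcin-1 of slow fibres and heart, gave -0.04 ± 0.07 (adjusted p = 0.668). Filamin C (Flnc) fell by 0.89 ± 0.20. Of the calcineurin subunits, the catalytic Ppp3ca fell by 0.27 ± 0.05, the regulatory Ppp3r1 fell by 0.30 ± 0.06, Ppp3cc was higher by 0.54 ± 0.07 (adjusted p = 3.32e-09), and Ppp3cb gave -0.10 ± 0.07 (adjusted p = 0.242).

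Of the 6 actin-binding LIM proteins and partners reported here, 2 were called higher and 1 lower, with a median log2 fold change of 0.09. Ablim3, another member of the family, gave 0.13 ± 0.11 (adjusted p = 0.374). Abra (STARS), a muscle activator of SRF signalling, fell by 0.55 ± 0.21 (adjusted p = 0.0264). The skeletal actin Acta1 was higher by 0.22 ± 0.05 (adjusted p = 0.00118) and the transcription factor Srf by 0.21 ± 0.08 (adjusted p = 0.0287). Abra was not called once Myh4 entered the fit (adjusted p = 0.121), and Srf not without a filter on low counts (adjusted p = 0.06).

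Scaling bears on the small differences among these companions. In the deposited FPKM, the median log2 difference of all genes was -0.54, and Hspa8, Acta1 and Srf took the opposite sign, at -0.19, -0.34 and -0.35. Of the calls, 384 were then higher and 10426 lower, beside 2936 higher and 3128 lower by edgeR on counts. The falls of Mettl21e, Actn3, Rcan1, Myoz1 and the 3 members kept their sign there.

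**Figure D2:**
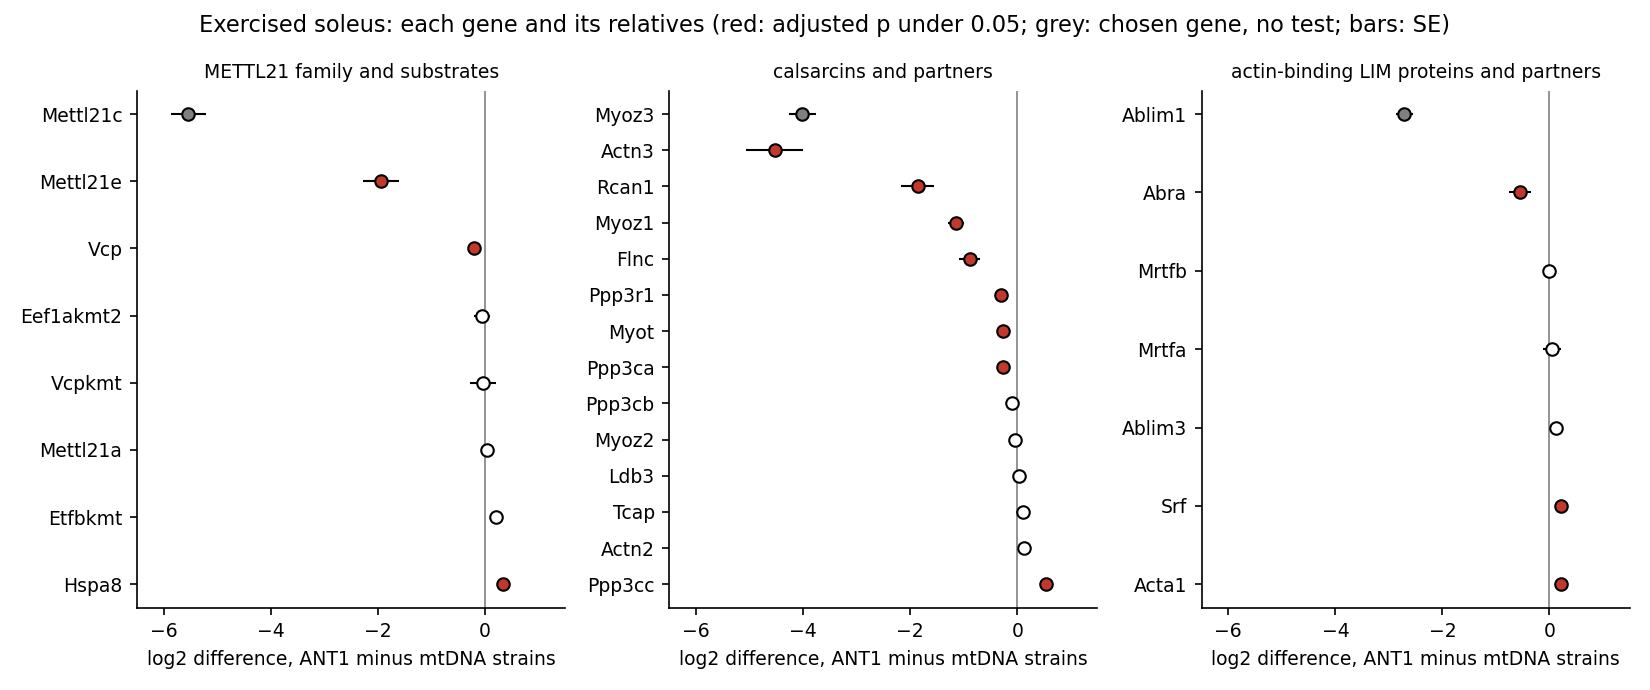
Log2 fold change of ANT1-/- against the mtDNA strains in exercised soleus (edgeR, bars are SE; red, adjusted p under 0.05; grey, the chosen genes, not tested) for Mettl21c, Myoz3, Ablim1 and the listed relatives and partners of each. The members, at -5.54, -4.02 and -2.71, were chosen for their fall, so their place to the left in each panel follows from the choice. Actn3, at -4.53, lies left of Myoz3.

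Some marker transcripts of fibre types also differed between ANT1-/- mice and the mtDNA strains, while others did not. Of the 11 fast fibre markers, 6 were lower and 1 higher in exercised ANT1-/- soleus. The log2 fold change was -5.20 ± 0.71 for Pvalb, the calcium buffer of fast fibres, -4.98 ± 0.73 for the fast myosin-binding protein Mybpc2, -4.40 ± 1.11 for Myh4, -1.76 ± 0.42 for Myh1 and -1.2 ± 0.17 for the light chain Mylpf, next to Actn3 above, while Tnnc2 was higher by 0.42 ± 0.10 (adjusted p = 0.000314). The summed level of the 11 overlapped, at 19850 to 33070 CPM in ANT1-/- soleus, against 26740 to 43660 CPM in the mtDNA strains. The 7 slow fibre markers, of which 2 were higher and 1 lower, summed to 25920 to 32800 CPM, against 22370 to 32640 CPM. Myh2, of IIa fibres, gave -0.01 ± 0.09 (edgeR's quasi-likelihood test, adjusted p = 0.943). The pattern was not the same in non-exercised soleus. There 5 of the 7 slow fibre markers were lower and 1 higher, with a median log2 fold change of -0.28, beside -0.04 over all genes. Of the 11 fast fibre markers, 5 were lower and 3 higher there.

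Markers of other cells moved as well. All 4 markers of muscle stem cells and regeneration were lower, and summed to 14.2 to 37.5 CPM in exercised ANT1-/- soleus, against 25.6 to 1478 CPM. Both macrophage markers were lower, at 1.88 to 4.70 CPM, against 3.07 to 23.5 CPM, and 2 of 3 fibroblast markers, at 209 to 276 CPM, against 170 to 635 CPM. Of the nerve and Schwann cell markers 1 of 4 was higher, at 33.97 to 43.2 CPM, against 15.6 to 31.5 CPM, and of the smooth muscle and endothelium markers 1 of 4, at 131 to 228 CPM, against 121 to 203 CPM. No marker of these lists was at 0 in all libraries of a group. The part of these cells in the members' difference was not tested.

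Every mtDNA soleus library held all 3 members above every ANT1-/- library, which the choice of the genes favours. Those with low Myh4 therefore did so too, and nothing is read from that. In exercised soleus, Myh4 stood at 16.3, 17.7 and 242 CPM in ANT1-/- mice (lowest, median, highest), against 11.7, 286 and 5518 CPM in the mtDNA strains, so the groups overlapped. In 11 of the 36 mtDNA libraries Myh4 was at or below the highest ANT1-/- library, and in 2 at or below the second highest.

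The lowest of those was mouse B69 (ND5S204F, exercised), with Myh4 at 11.7 CPM and with Mettl21c at 47.1, Myoz3 at 5.72 and Ablim1 at 355 CPM, the Myoz3 value being the lowest of the mtDNA strains. Mouse B3 (ND5S204F, non-exercised) had Myh4 at 24.8 CPM, with the members at 55.8, 9.99 and 445 CPM in the same order. The exercised ANT1-/- mouse A30 had the highest Myh4 of its strain, 242 CPM, with Mettl21c at 1.36, Myoz3 at 0.851 and Ablim1 at 76.5 CPM. In A30 Myh4 was at or above that of 11 mtDNA libraries. Actn3, also of the fast fibre list, stood at 57.6 CPM in B69, 104 CPM in B3 and 36.2 CPM in A30, so low Myh4 did not match the libraries in Actn3. With log2 Myh4 as a covariate in the fit, the 3 members kept the direction of their difference in exercised soleus. The members were chosen for low levels in ANT1-/- soleus, so these values are a description. The part of fibre type in the members' difference was not tested.

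**Figure D3:**
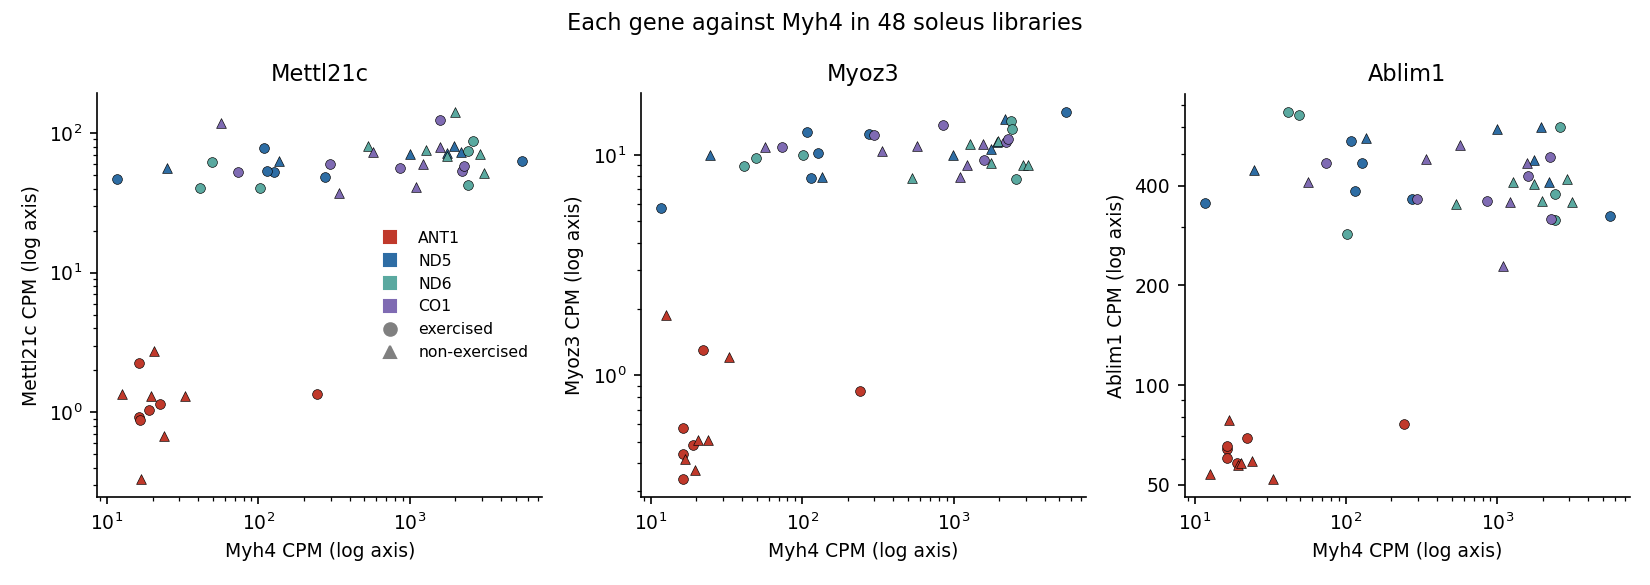
Level of Mettl21c, Myoz3 and Ablim1 against Myh4 in each soleus library (CPM, log axes), 12 ANT1-/- libraries and 36 of the mtDNA strains. Libraries with Myh4 under 50 CPM occur in both. All ANT1-/- libraries lie below all others on the vertical axis in each panel, which the choice of the genes favours.

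Across libraries of 1 strain or within groups, the members' correlation with Myh4 did not pass correction over the 18 relations computed. It was highest for Myoz3 in the 12 ND5S204F libraries (Pearson's r = 0.73, permutation p = 0.00639, adjusted p = 0.115; Spearman's rho = 0.65, permutation p = 0.025, adjusted p = 0.45). Without the 2 libraries farthest from the median Myh4, r was 0.44, and leaving them out also narrows the range of Myh4. Mettl21c in ND5S204F gave r = 0.62 (permutation p = 0.0329, adjusted p = 0.198; rho = 0.50, permutation p = 0.105), and 0.60 without 2 libraries. The other relations of a member with Myh4 within a strain had r between -0.43 and 0.46, with adjusted p of at least 0.504. Without the 2 libraries farthest from the median Myh4, r took the opposite sign for Ablim1 in ND6P25L (-0.43 with all, 0.53 without I59 and I75), Mettl21c in CO1V421A (-0.12 and 0.32), and in ANT1-/- mice for Mettl21c (0.11 and -0.03) and Myoz3 (0.18 and -0.28).

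Over the 36 mtDNA libraries, as deviations from group means, Myoz3 gave r = 0.48 (permutation p = 0.017, adjusted p = 0.153; rho = 0.36, permutation p = 0.0589), and 0.39 without 2 libraries. Mettl21c gave r = 0.19 (permutation p = 0.269, adjusted p = 0.504; rho = 0.28), and Ablim1 r = -0.22 (permutation p = 0.28, adjusted p = 0.504; rho = -0.21). Between the members, in the same libraries, r was 0.17 for Mettl21c with Myoz3 (permutation p = 0.277; rho = 0.24), 0.23 for Mettl21c with Ablim1 (permutation p = 0.264; rho = 0.24) and -0.12 for Myoz3 with Ablim1 (permutation p = 0.525; rho = -0.18).

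Heart separated the genes sharply. Myoz3 had 0 counts in all 48 heart libraries. Its soleus level was at least 1625-fold higher in exercised mtDNA strains, and at least 22.9-fold higher in exercised ANT1-/- mice, against a floor of 3 counts over the group's hearts. Mettl21c had 0 to 5 counts per heart, 11 counts in all in the 6 exercised ANT1-/- hearts and 19 in the 18 hearts of the exercised mtDNA strains. Its soleus level was 12.1-fold its heart level in ANT1-/- mice (95% counting interval 6.77 to 24.3), against 1420-fold (910 to 2359) in the mtDNA strains. These ratios rest on library totals, and such intervals and floors cover counting error only. Differences between strains in heart were not tested for either gene. In the deposited counts and FPKM, Mettl21c had an implied effective length with group medians of 1495 to 4596 bases in heart, imprecise at so few counts, against 992 to 1031 bases in soleus, near its coding transcript of 1086 bases. The ratios may therefore set reads assigned to unlike transcripts against each other.

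Ablim1 was abundant in heart in all strains. Exercised ANT1-/- hearts held 167, 412 and 607 CPM (lowest, median, highest), against 148, 431 and 614 CPM in the exercised mtDNA strains. Non-exercised ANT1-/- hearts held 222, 444 and 549 CPM, against 135, 452 and 642 CPM. The groups overlapped almost entirely at both treatments. The log2 fold change was 0.03 ± 0.27 in exercised hearts (95% interval -0.51 to 0.58; edgeR's quasi-likelihood test, adjusted p = 0.968; 4.78% of all genes called) and -0.02 ± 0.27 in non-exercised hearts (-0.56 to 0.53; adjusted p = 0.988; 0.916% called).

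The ANT1-/- difference of Ablim1 lay further from 0 in soleus, where the gene was chosen, than in heart. In exercised mice it was lower in soleus than in heart by a log2 difference of -2.69 ± 0.32 (95% interval -3.32 to -2.06), where 9.26% of the 16172 genes tested passed. Without mouse B80 it was -2.70. In exercised mtDNA strains, soleus was above heart by 0.36 ± 0.15 (0.05 to 0.66; adjusted p = 0.03), in a comparison that called 79.2% of all genes. That call was lost without a filter on low counts (0.32, adjusted p = 0.0847). The heart level in ANT1-/- mice thus lay near that of the other strains, while their soleus level lay under every heart library (52.04 to 78.4 CPM in soleus, against at least 135 CPM in heart, with CPM scaled within each tissue). Of the companions, the ANT1-/- difference was lower in soleus than in heart for 1 METTL21 gene, Mettl21e, and for 5 of the 13 calsarcins and partners, Actn3 (-4.77 ± 0.77, adjusted p = 6.24e-06), Rcan1 (-2.30 ± 0.44, adjusted p = 0.000152), Myoz1, Flnc and Ppp3ca.

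**Figure D4:**
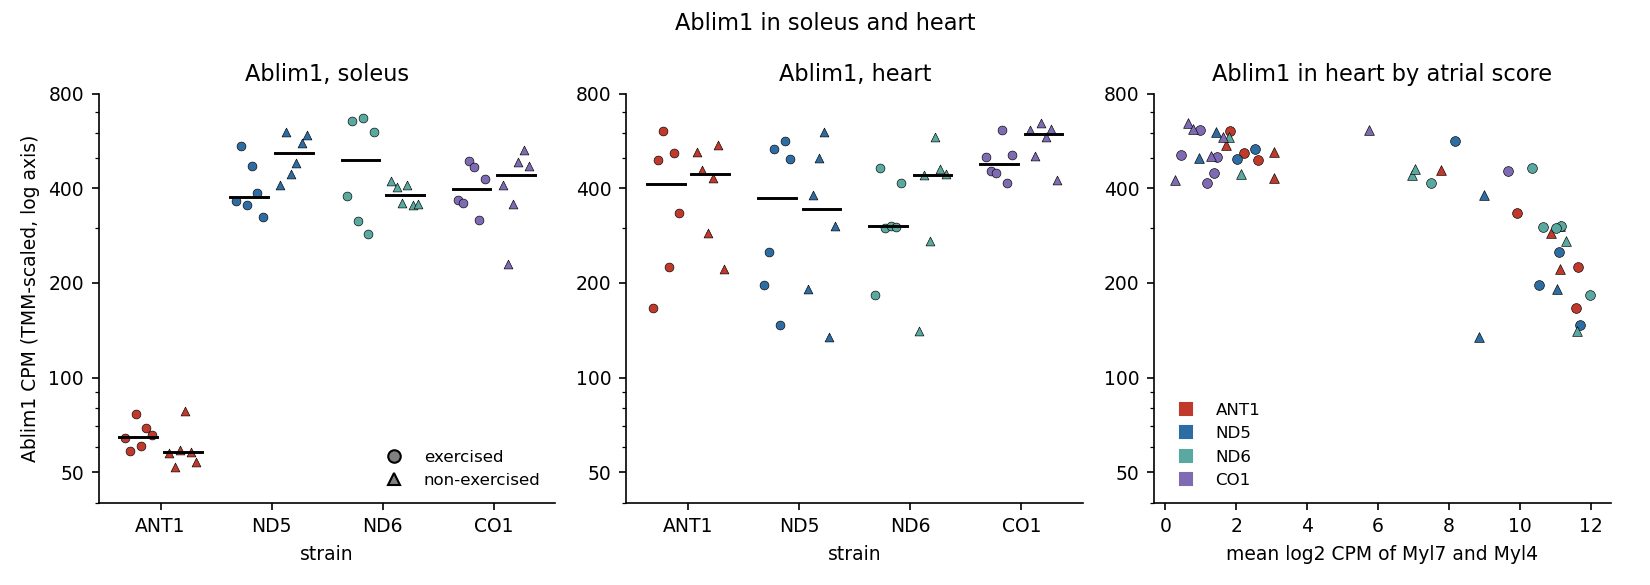
Ablim1 in each soleus and heart library (CPM, log axis) by strain and treatment, 6 libraries a group, with bars at the medians, and in heart against the mean log2 CPM of Myl7 and Myl4 (right). The ANT1-/- soleus libraries, at 52.04 to 78.4 CPM, lie under every heart library, while ANT1-/- hearts, at 167 to 607 CPM, lie among those of the mtDNA strains.

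Ablim1 in heart moved with atrial markers. The mean log2 CPM of the atrial light chains Myl7 and Myl4, a score taken up after the values had been seen, split the hearts into 22 with 0.27 to 3.07 and 26 with 5.75 to 11.98. Ablim1 ran from 414 to 642 CPM in the low-score hearts and from 135 to 613 CPM in the high-score ones. Among the high-score hearts it fell with the score (Pearson's r = -0.72, permutation p = 5e-05, adjusted p = 0.0001; Spearman's rho = -0.73, permutation p = 4e-05; r = -0.65 without 2 hearts). Among the low-score hearts r was -0.17 (permutation p = 0.452, adjusted p = 0.452; rho = -0.15; r = -0.04 without 2 hearts). The ANT1-/- hearts stood 6 in each class. Values were permuted over all hearts of a class, so these p-values take no account of strain or treatment. The high-score class also held 10 ND6P25L, 8 ND5S204F and 2 CO1V421A hearts, among them mouse B80, with the lowest Ablim1 (135 CPM). The B80 heart held Myh4 at 15.4 CPM, against at most 1.59 CPM in any other heart. The source of that Myh4 was not tested, and the relation to the score was not computed without this heart.

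Within the classes the strains again overlapped. Low-score ANT1-/- hearts held 431 to 607 CPM of Ablim1, against 414 to 642 CPM in the mtDNA strains, and high-score ANT1-/- hearts 167 to 456 CPM, against 135 to 613 CPM. With the score as a covariate, the ANT1-/- difference was -0.09 in exercised (adjusted p = 0.818) and 0.10 in non-exercised hearts (adjusted p = 0.81).

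Between mtDNA strains, Ablim1 in heart was lower in ND5S204F than in CO1V421A by a log2 difference of -0.55 ± 0.23 (95% interval -1.02 to -0.07; adjusted p = 0.078; 22.2% of all genes called), which missed the threshold. ND6P25L gave -0.54 ± 0.23 against CO1V421A (-1.01 to -0.06; adjusted p = 0.0921; 17.1% called), and ND5S204F -0.01 ± 0.23 against ND6P25L (-0.48 to 0.46; adjusted p = 1; 0.00636% called). Of the low-score hearts 10 were CO1V421A, 4 ND5S204F and 2 ND6P25L. With the score as a covariate the 2 differences from CO1V421A were -0.09 and 0.11. Training moved Ablim1 in heart by -0.12 ± 0.17 over the 4 strains (-0.45 to 0.22; edgeR's quasi-likelihood test, adjusted p = 0.992), where 0% of all genes were called, with 538 genes under an unadjusted p of 0.05 and 1 by DESeq2.

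The genes whose levels followed each member most closely were ranked by Pearson's r, as a description. Over the means of the 16 groups, among 10700 genes, Mettl21c and Myoz3 were each other's nearest gene (r = 0.997). For Mettl21c, Pqlc1 (0.992), Tle4 (0.992), Arih1 (0.991) and Hsf2 (0.991) came next, and for Myoz3, Hsf2 (0.996), Tle4 (0.995), Arih1 (0.994) and Psmd5 (0.994). Both patterns hold the contrast of soleus with heart, where these genes had few or no counts. They also hold that of ANT1-/- soleus with the rest, for which the genes were chosen. Nothing is read from their closeness. Ablim1 differed, with an r of 0.221 to Mettl21c and 0.165 to Myoz3, and was nearest to Cd99l2 (0.960), Fsd1l (0.944), Atp9a (0.933), Wdr34 (0.932) and Thbs2 (0.931).

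Within groups, over deviations from the group mean in the 48 soleus libraries and 10361 genes, the members parted. Mettl21c was nearest to Letmd1 (0.527), Spats2l (0.525), Bbs7 (0.517), Lgi1 (0.515) and Cp (0.505). Myoz3 was nearest to Tmem56 (0.778), Mybpc2 (0.713), Slc16a3 (0.691), Tspan8 (0.687) and Myh1 (0.672), of which Mybpc2 and Myh1 stand in the fast fibre list. Ablim1 was nearest to Vimp (0.757), Plpp1 (0.744), Chmp1b (0.726), Galns (0.717) and Pam (0.716). To each other the r values were 0.218 for Mettl21c and Myoz3, 0.072 for Mettl21c and Ablim1, and -0.108 for Myoz3 and Ablim1. Libraries of 1 group share strain and treatment but differ in depth and in tissue taken. In the 12 ANT1-/- libraries among them, Mettl21c had only 4 to 31 counts and Myoz3 4 to 25, so counting error enters the r values of both.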

How the data were processed

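Whole soleus and heart RNA was oligo(dT)-enriched and sequenced in pairs after NEBNext Ultra II preparation, per the labels' protocols. The authors deposited expected counts and FPKM per gene; the submitters' processing notes name STAR 2.5.2b, RSEM 1.2.28 and mm10. Expected counts were rounded, genes kept by filterByExpr (13935 in soleus, 15723 in heart, 16172 in both) and fitted with edgeR 4.0.16 (TMM, quasi-likelihood F test, one mean per group, Benjamini-Hochberg adjustment over all genes tested; called at adjusted p under 0.05). log2 CPM used a prior count of 2. Deposited FPKM, already scaled to library size and length by the authors, were used per length and with limma 3.58.1 on log2(FPKM + 0.1). Correlations used 100000 permutations, two-sided (scipy 1.17.1). DESeq2 1.42.0 was an alternative.

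The fit was tested on simulated data. Columns that matched no sample title (24) were not used. The 3 genes, the lists and the rules for named genes (list members; the 5 nearest genes by r, mean log2 CPM at least 1) were chosen with earlier results of these data known. The ANT1-/- differences of the 3 genes in exercised soleus and between tissues were planned as tests but are given without p-values, since the choice rests on ANT1-/- soleus. A gene of 1 list is not reported here. No 2 libraries were identical. For the 19 mouse codes found in both tissues, deviations from group means over 11302 genes correlated with a median r of 0.11 (-0.32 to 0.40), over 0.1 in 10 pairs; the pairing comes from the codes in the labels.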

Additional observations from a re-analysis of the deposited data

Results flagged for a closer look

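Of 32 groups checked for a single library far from the others, 2 had one, and chance gives about 1 in 20. Mettl21c in exercised CO1V421A soleus stood at a log2 CPM of 6.95 in mouse E78, which is 123 CPM, against 52.98 to 60.3 CPM in the other 5. Ablim1 in non-exercised ANT1-/- soleus stood at a log2 CPM of 6.30 (6.295) in mouse A75, which is 78.4 CPM, against 52.04 to 58.9 CPM in the other 5. Both libraries remain on their strain's side of the gap in soleus. The ANT1-/- difference of Ablim1 in exercised mice differed between the tissues by a log2 value of -2.69 (soleus minus heart), from the fit over both tissues, its soleus side being the difference for which the gene was chosen.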

How the results depend on the processing

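For 90 results, 813 alternative values were computed. Of these, 782 kept their side of the threshold (or, where no test was given, moved by at most 1 SD) and 28 moved. Another 2 passed the threshold only then, 1 missed it, and 0 changed sign with a call in either setting. Changes of sign with no call in either setting count among the 782, so those did not all keep their direction. In exercised soleus, the 3 members kept their direction under every alternative. In non-exercised soleus, limma on FPKM gave -6.48 for Mettl21c, -4.37 for Myoz3 and -3.47 for Ablim1, where the median of all genes was -0.65. Leaving out 1 library at a time gave Myoz3 values of -4.06 (without ANT1 replicate A88) to -3.42. In heart, Ablim1 in ND5S204F minus CO1V421A passed the threshold on FPKM (-0.52, adjusted p = 0.0402; edgeR and DESeq2 settings at -0.56 to -0.09 missed it, with adjusted p of 0.0703 to 0.945). Soleus minus heart for Ablim1 in mtDNA strains was 0.32 (adjusted p = 0.0847) without a filter on low counts. The correlation of Myoz3 with Myh4 in ND5S204F passed correction in FPKM (r = 0.79, adjusted p = 0.0263). The cause was not tested.

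With the mouse code as a replicate block (limma voom), the tissue difference of Ablim1 was -2.61, soleus minus heart was 0.39 (adjusted p = 0.0212), and 1076 genes were called for the tissue difference, beside 1498 without it; no member's call changed. Counts of calls moved most in exercised heart, with 751 genes by edgeR, 347 without a filter, 1798 on FPKM, 1418 with the atrial score, and 186 (without ANT1 replicate A73) to 1155 (without ANT1 replicate A17) with 1 library left out. On FPKM, 10810 genes were called in exercised soleus, beside 6064, and 2882 for the tissue difference. Leaving out B80 beyond the planned comparisons, the atrial classes and the effective lengths were added after seeing the data. The comparison with the B6 control was not run. Counts near 0 limit what can be said of Mettl21c and Myoz3 in ANT1-/- soleus and in heart.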

Other observations

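The ratio of expected count to FPKM gives the effective length that the authors' quantification assigned to a gene in a library, which for a gene of many transcripts depends on the isoforms it was split into. For Ablim1 the median over the 48 soleus libraries was 4640 bases (4221 to 5106), beside 4994 bases (4691 to 5453) over the 48 hearts, and 20 soleus libraries lay at or above the lowest heart. In exercised soleus it was 4515 ± 264 bases in ANT1-/- mice, against 4632 ± 144 bases in the mtDNA strains (SD, n = 6 and 18; exact permutation test, two-sided, p = 0.179, adjusted p = 0.706 over 4 tests). This measure was taken up after the values had been seen.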
